A study of Homo sapiens with 6 samples.

Results

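ADIPOR1, VAMP3, TMEM258, EZR, CLIP1 and CARD8 are genes on chromosomes other than 9 that have been reported, in other cells, to respond to the level of the long noncoding RNA CDKN2B-AS1, also called ANRIL. They were taken by name from the deposited gene table, in which all 6 were found among 60612 genes. The measured cells were SH-SY5Y, a human neuroblastoma line of adrenergic, neuron-like character. Of 6 RNA-seq libraries, 3 came from cells infected to overexpress CDKN2B-AS1, according to their labels, and 3 from cells infected with a control vector, named stuffer. The names of the table columns carry the tag LVx2 in the first group and LVx1 in the second, which no label explains. Whatever the tags mark differs along with the groups and cannot be told apart from them. The title of the series speaks of a mutation of CDKN2B-AS1, whereas the sample labels name an overexpression. Separate cultures are not stated for replicates, so the p-values rest on a spread between libraries that may be technical.

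CDKN2B-AS1 is transcribed from the 9p21 locus, antisense to the cell cycle inhibitor gene CDKN2B. It is best known for acting in cis on that locus through Polycomb proteins, and it has also been proposed to act in trans on genes elsewhere in the genome. The genes studied here have unrelated roles. ADIPOR1 encodes a membrane receptor for the hormone adiponectin, which signals through AMP-activated kinase. VAMP3, also called cellubrevin, is a vesicle SNARE of recycling endosomes. TMEM258 is a small subunit of the oligosaccharyltransferase, which attaches N-linked sugars to proteins in the endoplasmic reticulum. EZR, or ezrin, links the plasma membrane to cortical actin. CLIP1, or CLIP-170, binds the growing plus ends of microtubules. CARD8 is an inflammasome sensor that can activate caspase-1.

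The promoters of ADIPOR1, VAMP3 and CLIP1 are shown because these are the members whose levels did not overlap between the groups. Each sequence is the 250 bases before the most upstream start in RefSeq (GRCh38.p14), written 5′ to 3′ on the strand of the gene, and capitals mark GC boxes (GGGCGG on either strand, overlapping matches included).
ADIPOR1 (chr1:202958397-202958646, minus strand): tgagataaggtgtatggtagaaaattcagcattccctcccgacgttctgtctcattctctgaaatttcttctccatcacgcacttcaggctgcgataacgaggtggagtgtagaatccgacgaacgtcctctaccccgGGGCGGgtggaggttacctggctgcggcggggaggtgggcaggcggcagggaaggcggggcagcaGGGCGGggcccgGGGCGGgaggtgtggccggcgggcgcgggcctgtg
VAMP3 (chr1:7771046-7771295, plus strand): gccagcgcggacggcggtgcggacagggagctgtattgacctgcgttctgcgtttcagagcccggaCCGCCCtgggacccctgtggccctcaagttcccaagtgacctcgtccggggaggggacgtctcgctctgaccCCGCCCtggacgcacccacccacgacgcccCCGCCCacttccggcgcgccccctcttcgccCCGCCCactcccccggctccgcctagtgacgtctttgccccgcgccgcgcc
CLIP1 (chr12:122422670-122422919, minus strand): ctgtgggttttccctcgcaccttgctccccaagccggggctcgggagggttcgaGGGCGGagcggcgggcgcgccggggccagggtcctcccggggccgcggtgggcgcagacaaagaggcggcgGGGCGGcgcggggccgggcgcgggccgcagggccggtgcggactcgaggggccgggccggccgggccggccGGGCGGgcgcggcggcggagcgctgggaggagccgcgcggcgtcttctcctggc

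A GC box stood in the window of 4 of the 6 genes, with 3 matches for ADIPOR1, 4 for VAMP3, 3 for EZR and 3 for CLIP1, and in 42.2% of the 27305 RefSeq promoters of the same length. The windows of TMEM258 and CARD8 held 0 matches. A CCAAT box (CCAAT on either strand) was in 0 of the 6 windows and in 33.0% of all promoters. GC content was 63.6% for ADIPOR1, 73.2% for VAMP3, 63.2% for TMEM258, 80.8% for EZR and 82.8% for CLIP1, against a median of 57.6% over all promoters, and it was 37.6% for CARD8. CARD8 was thus the only member with a window poorer in G and C than that median. The RefSeq table lists 5 starts for CARD8 and 3 for ADIPOR1, of which the most upstream was used.

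The values are FPKM, in which the fragments of a gene are divided by its length and by the library's assigned fragments. Depth recovered from the table was 20466583 to 48996425 fragments in the labelled overexpression libraries and 29048596 to 45102020 in the control vector libraries. The sum of FPKM over genes was 349703 to 365333 in labelled overexpression libraries and 381310 to 400215 in control vector libraries, without overlap, and a rescaling to a common total is given with the other settings. Of 14 markers of adrenergic neuroblastoma 13 reached 1 FPKM in at least 3 libraries, and their summed level was 1354 to 1465 FPKM in labelled overexpression and 1280 to 1425 FPKM in control vector libraries. The exception among the adrenergic markers was TH, tyrosine hydroxylase, at 0.0257 FPKM or less in the labelled overexpression libraries and 0.300 FPKM or less in the controls. Of 8 epithelial and 8 immune markers 0 reached that level, and PTPRC was listed at 0 in all libraries. The epithelial sum was 0.648 to 1.92 FPKM in labelled overexpression and 0.884 to 1.11 FPKM in control vector libraries, and the immune sum 0.916 to 1.89 against 0.547 to 1.93 FPKM. Of 8 fibroblast markers 5 did, THY1, LUM, PDGFRA, COL3A1 and DCN, with a summed level of 45.4 to 51.2 against 41.3 to 53.9 FPKM. THY1, which neurons also express, had the highest mean. LUM exceeded it in replicate 3 of the labelled overexpression (21.4 against 17.2 FPKM) and of the control vector (21.1 against 18.6 FPKM). Of 8 Schwann and glial markers S100B and PMP22 reached 1 FPKM in at least 3 libraries, with sums of 9.47 to 10.8 against 7.94 to 14.1 FPKM.

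CDKN2B-AS1 (ENSG00000240498, GRCh38 chromosome 9, 21994139 to 22128103, plus strand) checks the labels. Its level was 0.338, 0.304 and 0.353 FPKM in labelled overexpression replicates 1, 2 and 3, against 0.272, 0.288 and 0.191 FPKM in control vector replicates 1, 2 and 3. The groups did not overlap, but the gap between them was small. The smallest p that 3 libraries against 3 allow in the exact two-sided permutation test is 0.1, and this was the value. In limma-trend, fitted beside the tested genes since it lay below the filter, it had a log2 fold change of 0.15 (SE 0.29) and an adjusted p of 0.834, with a 95% interval of 0.704-fold to 1.75-fold, and this fold change reversed to -0.08 once a trend on gene length was removed. At this low level the size depended on how low values were treated. It was 1.24-fold with a pseudocount of 0.1 in place of 0.5 (95% interval 0.411-fold to 3.75-fold) and 1.36-fold in limma-voom on the recovered fragments (95% interval 0.912-fold to 2.03-fold). The ratio of the mean FPKM was 1.33, and whether an overexpressed transcript would be counted at this gene was not tested.

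Of the 6 genes 5 were high enough to test (at least 1 FPKM in at least 3 of the 6 libraries), and 0 of the 5 passed a Benjamini-Hochberg adjusted p of 0.05 in limma-trend, where 1.14% of the 13984 tested genes passed (0.529% higher and 0.608% lower). At an unadjusted limma-trend p under 0.05 there were 2 of 5, ADIPOR1 higher and VAMP3 lower, where 17.7% of all tested genes lay under it (10.4% higher and 7.34% lower). That unadjusted p was above 0.05 for ADIPOR1 without the variance trend (0.0593) and without labelled overexpression replicate 1 (0.0600). For VAMP3 it was above 0.05 with a common total (0.0991), without the variance trend (0.0542), and without labelled overexpression replicate 1 or 2 or control vector replicate 2 or 3 (0.0799, 0.0553, 0.0693 and 0.0736). With limma-voom on the recovered fragments 0 of the 6 genes passed as well. The 3 labelled overexpression libraries did not overlap the 3 controls for 2 of the 5 tested genes, where 24.1% of all tested genes did not overlap (14.2% higher and 9.9% lower). The log2 fold changes were above 0 for 3 and below 0 for 2, with a median of 0.11, against 56.8% above 0 and a median of 0.05 over all tested genes. The members thus did not move one way, as the plot of levels by library shows.

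**Figure D1:**
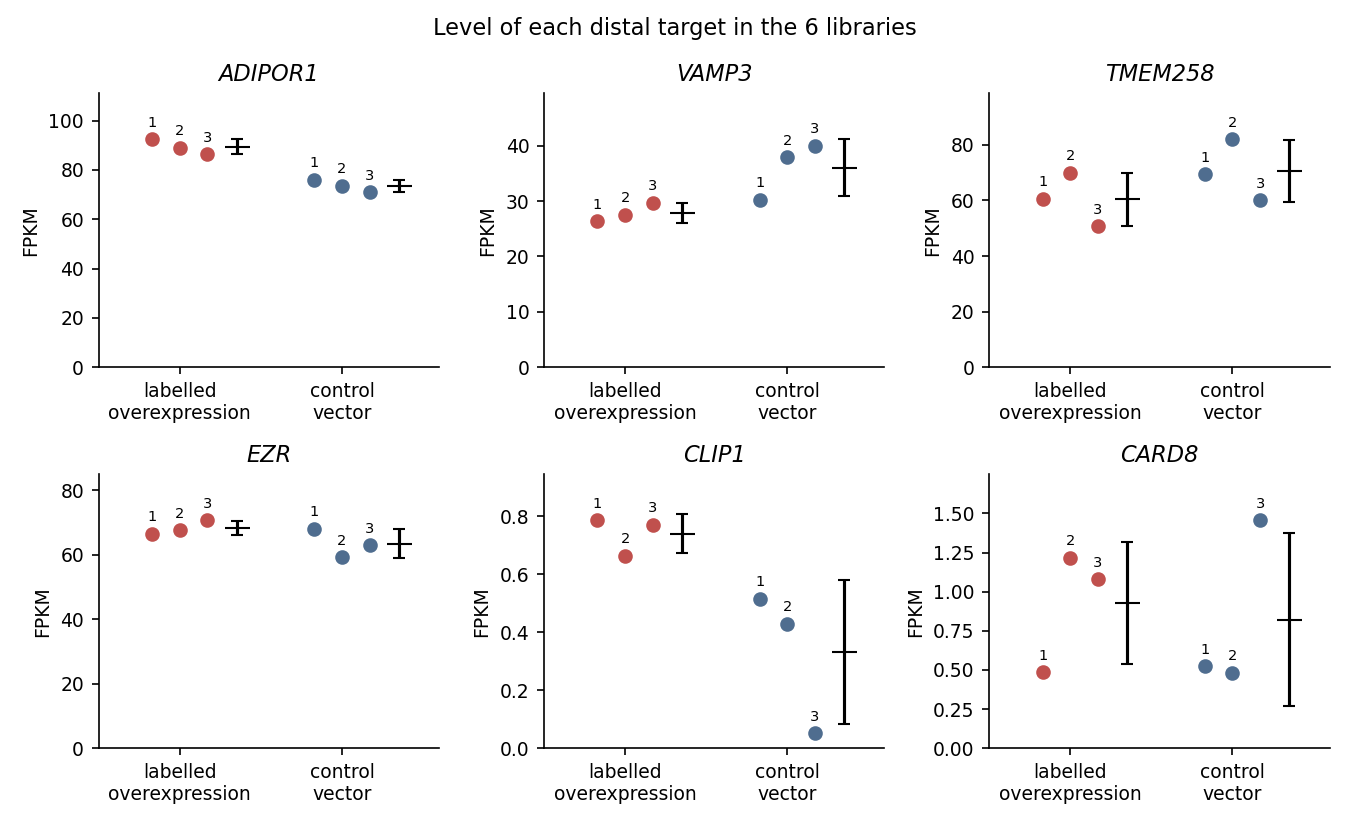
FPKM (y axis, from 0) of the 6 distal targets in each library, labelled overexpression left and control vector right in each panel; points are libraries with their replicate numbers and black marks are mean ± SD (n = 3). ADIPOR1 and CLIP1 lie higher and VAMP3 lower in all 3 labelled overexpression libraries, while the groups overlap for TMEM258, EZR and CARD8.

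ADIPOR1 (ENSG00000159346, chromosome 1, 202940826 to 202958572, minus strand) was the most abundant member. It stood at 92.5, 89.0 and 86.4 FPKM in labelled overexpression replicates 1, 2 and 3, against 75.9, 73.6 and 71.0 FPKM in control vector replicates 1, 2 and 3. The groups were separated by a gap larger than the range within either of them. Labelled overexpression averaged 89.3 ± 3.05 FPKM and control vector 73.5 ± 2.48 FPKM (SD, n = 3 each). The log2 fold change was 0.28 (SE 0.092), a 1.21-fold level with a 95% interval of 1.05-fold to 1.40-fold, which did not pass (limma-trend, Benjamini-Hochberg adjusted p = 0.168). Between 5670.0 and 13177 fragments per library lay behind these values. The coefficient of variation of 3.42% among labelled overexpression and 3.37% among control vector libraries exceeded the 1.11% and 1.07% that counting alone gives.

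VAMP3 (ENSG00000049245, chromosome 1, 7771296 to 7781432, plus strand) lay on the other side. Its level was 26.3, 27.5 and 29.7 FPKM in labelled overexpression replicates 1, 2 and 3, against 30.2, 37.9 and 40.0 FPKM in control vector replicates 1, 2 and 3. Labelled overexpression replicate 3 and control vector replicate 1 nearly touched, and the controls were the more spread. Labelled overexpression averaged 27.9 ± 1.73 FPKM and control vector 36.0 ± 5.16 FPKM (SD, n = 3 each). The log2 fold change was -0.36 (SE 0.13), a level of 0.781 with a 95% interval of 0.636 to 0.958, which did not pass either (limma-trend, Benjamini-Hochberg adjusted p = 0.207). The number of fragments per library was 1537.5 to 4744.

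The ratio of ADIPOR1 to VAMP3 within a library does not depend on how libraries are scaled. It was 3.51, 3.24 and 2.91 in labelled overexpression replicates 1, 2 and 3, against 2.51, 1.94 and 1.77 in control vector replicates 1, 2 and 3. The groups did not overlap, with means of 3.22 ± 0.303 in labelled overexpression and 2.08 ± 0.388 in control vector libraries (SD, n = 3 each; exact two-sided permutation p = 0.1, the smallest possible). This had to follow, since ADIPOR1 was higher and VAMP3 lower in all labelled overexpression libraries, so the ratio is no further test. Of the 6 such ratios among the 4 abundant members, those of ADIPOR1 to TMEM258 and of VAMP3 to EZR were also without overlap, and the other 3 overlapped. No share over other pairs of genes was computed. ADIPOR1 was 1.53, 1.27 and 1.70 times TMEM258 in labelled overexpression replicates 1, 2 and 3, against 1.09, 0.897 and 1.18 times in control vector replicates 1, 2 and 3. VAMP3 was 0.408 ± 0.0121 of EZR in labelled overexpression and 0.573 ± 0.112 of it in control vector libraries (SD, n = 3 each).

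TMEM258 (ENSG00000134825, chromosome 11, 61768501 to 61792802, minus strand) stood at 60.6, 70.0 and 50.8 FPKM in labelled overexpression replicates 1, 2 and 3, against 69.5, 82.1 and 60.02 FPKM in control vector replicates 1, 2 and 3. The groups overlapped. Labelled overexpression averaged 60.4 ± 9.61 FPKM and control vector 70.5 ± 11.1 FPKM (SD, n = 3 each). The log2 fold change was -0.22 (SE 0.15), with a 95% interval of 0.680-fold to 1.08-fold (limma-trend, Benjamini-Hochberg adjusted p = 0.476). The coefficients of variation of 15.9% in labelled overexpression and 15.7% in control vector libraries were far above the 1.35% and 1.1% of counting.

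EZR (ENSG00000092820, chromosome 6, 158765741 to 158819368, minus strand) stood at 66.5, 67.5 and 70.7 FPKM in labelled overexpression replicates 1, 2 and 3, against 68.1, 59.2 and 63.0 FPKM in control vector replicates 1, 2 and 3. Control vector replicate 1 lay among the values of the other group. The log2 fold change was 0.11 (SE 0.099), with a 95% interval of 0.923-fold to 1.26-fold (limma-trend, Benjamini-Hochberg adjusted p = 0.619). Labelled overexpression averaged 68.2 ± 2.21 FPKM and control vector 63.4 ± 4.43 FPKM (SD, n = 3 each).

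CLIP1 (ENSG00000130779, chromosome 12, 122271432 to 122422669, minus strand) lay below the filter in every library. Its level was 0.787, 0.665 and 0.771 FPKM in labelled overexpression replicates 1, 2 and 3, against 0.516, 0.429 and 0.0508 FPKM in control vector replicates 1, 2 and 3. All labelled overexpression libraries were above all controls, and control vector replicate 3 was far below the other controls. Behind these values were 403, 253 and 702.5 fragments in the labelled overexpression replicates, against 433, 232 and 41 fragments in those of the control vector. Labelled overexpression averaged 0.741 ± 0.0666 FPKM and control vector 0.332 ± 0.248 FPKM (SD, n = 3 each). Fitted beside the tested genes, the log2 fold change was 0.62 (SE 0.32), 1.54-fold with a 95% interval of 0.933-fold to 2.55-fold (limma-trend, Benjamini-Hochberg adjusted p = 0.351). The size depended on how low values were treated and on that library. It was 3.38-fold in limma-voom on the recovered fragments (95% interval 1.12-fold to 10.2-fold, Benjamini-Hochberg adjusted p = 0.244), and 1.28-fold in limma-trend without control vector replicate 3 (95% interval 0.815-fold to 2.00-fold).

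CARD8 (ENSG00000105483, chromosome 19, 48180770 to 48255946, minus strand) passed the filter through 3 libraries alone, replicates 2 and 3 of the labelled overexpression and replicate 3 of the control vector. Its level was 0.486, 1.22 and 1.08 FPKM in labelled overexpression replicates 1, 2 and 3, against 0.524, 0.480 and 1.46 FPKM in control vector replicates 1, 2 and 3. Libraries of each group were found at both the low and the high end. The log2 fold change was 0.15 (SE 0.36), with a 95% interval of 0.636-fold to 1.93-fold (limma-trend, Benjamini-Hochberg adjusted p = 0.871), and its sign changed when labelled overexpression replicate 2 or control vector replicate 2 was left out. The coefficients of variation were 41.9% in labelled overexpression and 67.2% in control vector libraries, where counting gives 5.60% and 5.49%.

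**Figure D2:**
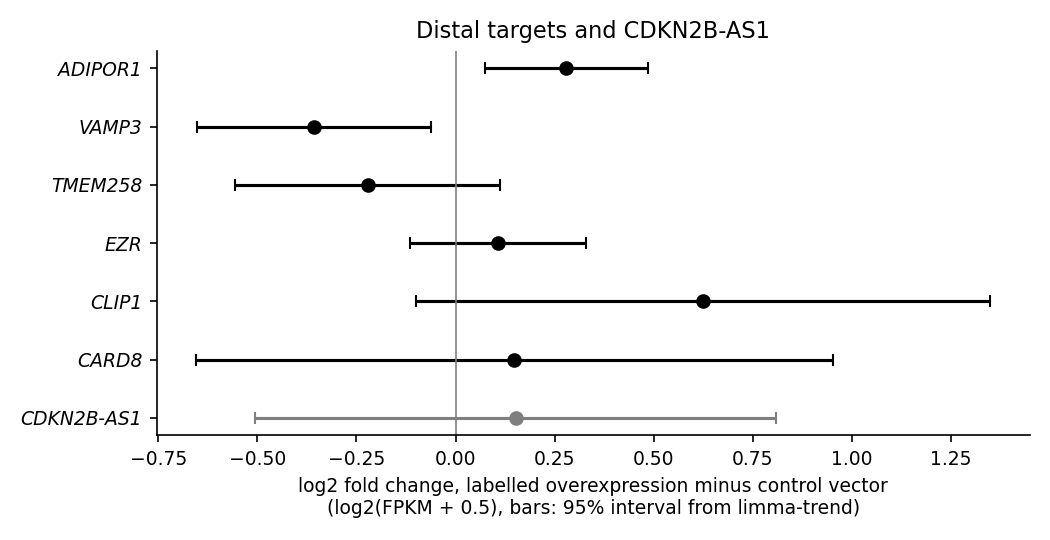
Log2 fold change (x axis, labelled overexpression minus control vector, on log2(FPKM + 0.5)) of the 6 distal targets and CDKN2B-AS1, with 95% intervals from limma-trend. The interval lies above 0 for ADIPOR1 (0.07 to 0.48) and below 0 for VAMP3 (-0.65 to -0.06) without adjustment for the number of genes, and spans 0 for the others.

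The members fell into an abundant set and a scarce pair. ADIPOR1, EZR, TMEM258 and VAMP3 were above 94.5%, 93.3%, 93.2% and 85.9% of the tested genes in mean FPKM, and CARD8 was above 0.5% of them. ADIPOR1 was the highest member in 5 of the 6 libraries, and TMEM258 in control vector replicate 2. EZR and TMEM258 exchanged places between libraries and did not differ beyond their spread, while VAMP3 followed these 3 in each library. CLIP1 was last except in labelled overexpression replicate 1, where CARD8 was, and their ranges overlapped in labelled overexpression and in control vector libraries. FPKM divides by the gene lengths of the table, which are long for the scarce pair, 18596 bases for CLIP1 and 13219 for CARD8, against median annotated coding transcripts (GENCODE v29) of 4516 and 1917 bases. For ADIPOR1, VAMP3, TMEM258 and EZR the table gives 3113, 2733, 3082 and 3298 bases, against median annotated coding transcripts of 1087, 1579, 1133 and 3068 bases. The table length was thus close to that of a coding transcript for EZR and well above it for ADIPOR1 and TMEM258, and the order of levels rests on the table lengths.

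The genes that work with each member were then examined, from 6 lists that held 137 tested genes. Of these, 0 passed in limma-trend with Benjamini-Hochberg adjustment, and 22 had an unadjusted p under 0.05, 21 of them higher and 1 lower. Over both directions that is 16.1% of the list genes, where 17.7% of all tested genes lay under this p. By direction it is 15.3% higher and 0.73% lower among the list genes, against 10.4% higher and 7.34% lower among all tested genes. The lists were chosen with earlier results of these data known, so these shares are no independent support. Of the 21 higher genes 9 were in the microtubule plus-end list. The lists' median table lengths were 4564 to 8377 bases, against 3829 over all tested genes, and a share over genes of like length was not computed. The lists are named below by the member they belong to, and the plot of partner genes sets each member against its list.

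The list of adiponectin receptor and AMPK genes had 20 tested genes, with a median log2 fold change of -0.02, 9 above and 11 below 0. ADIPOR2, the paralogous adiponectin receptor, was far scarcer than ADIPOR1, at 2.46 ± 0.220 FPKM in labelled overexpression and 2.74 ± 0.999 FPKM in control vector libraries (SD, n = 3 each), with a log2 fold change of -0.09. The smallest p values belonged to PAQR4, another member of the same receptor family, at 0.51 (limma-trend, Benjamini-Hochberg adjusted p = 0.233), APPL2, an adaptor of the receptor pathway, at 0.42 (adjusted p = 0.239) and PRKAB1, a regulatory subunit of AMPK, at -0.33 (adjusted p = 0.327). In the list 3 genes were higher in all labelled overexpression libraries, or 15.0%, where 14.2% of all tested genes were. PAQR4 and APPL2 were among them, and PRKAB1 overlapped.

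The SNARE list had 40 tested genes, evenly split into 20 above and 20 below 0 with a median of 0.01. VAMP2, the synaptic vesicle relative of VAMP3, stood at 4.62 ± 0.549 FPKM in labelled overexpression and 3.59 ± 0.865 FPKM in control vector libraries (SD, n = 3 each), a log2 fold change of 0.34 with a 95% interval of -0.12 to 0.80. VAMP1 and VAMP8 were too low to test, with means of 0.900 and 0.528 FPKM in labelled overexpression and 0.838 and 0.760 FPKM in control vector libraries. VTI1A, a SNARE of the endosome and Golgi, had a log2 fold change of 0.53 (limma-trend, Benjamini-Hochberg adjusted p = 0.276) and VAMP5 one of -0.51 (adjusted p = 0.300). In the list, which leaves out VAMP3 itself, 5 genes were higher in all labelled overexpression libraries, or 12.5%, where 14.2% of all tested genes were. Only 1 of the 40 was lower in all of them, where 9.9% of all tested genes were. This was STX10 at -0.24, a name chosen after its values were seen.

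The oligosaccharyltransferase and translocon list had 19 tested genes and a median of 0.09, with 13 above and 6 below 0. MAGT1, an oxidoreductase subunit of the enzyme, was at 7.77 ± 0.0451 FPKM in labelled overexpression and 5.36 ± 0.515 FPKM in control vector libraries (SD, n = 3 each; limma-trend, Benjamini-Hochberg adjusted p = 0.147). RPN2, a core subunit, was at 245 ± 10.5 against 207 ± 5.84 FPKM (SD, n = 3 each; adjusted p = 0.188), without overlap. STT3B, a catalytic subunit, was at 10.1 ± 2.18 against 5.98 ± 3.20 FPKM (SD, n = 3 each; adjusted p = 0.258) and overlapped. TMEM258, at -0.22, therefore had the opposite sign to the 3 subunits of smallest p, and the same sign as the 6 genes of the list below 0. A difference between TMEM258 and its list was not tested.

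Few inflammasome genes were expressed, as 10 of the 31 listed could be tested, and their median was 0.06. The smallest p values were those of TXNIP, a redox regulator, at -0.48 (limma-trend, Benjamini-Hochberg adjusted p = 0.218), RIPK2, a kinase downstream of NOD receptors, at 0.59 (adjusted p = 0.274) and CARD9, an adaptor protein, at 0.20 (adjusted p = 0.649). The groups overlapped for all 3.

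The microtubule plus-end list had the highest median of the 6, 0.28, with 22 of 26 tested genes above 0. In 11 of the 26, or 42.3%, all labelled overexpression libraries were above all controls, where 14.2% of all tested genes were, and in 0 they were all below. The list was chosen with earlier results of these data known, so this share is no independent support. No share over genes of like length was computed. IQGAP1, a scaffold that binds CLIP1 and actin, stood at 9.43 ± 1.46 FPKM in labelled overexpression and 5.20 ± 0.536 FPKM in control vector libraries (SD, n = 3 each; limma-trend, Benjamini-Hochberg adjusted p = 0.0604). ERC1, which anchors plus ends at the cell cortex, stood at 3.87 ± 0.553 against 1.93 ± 0.148 FPKM (adjusted p = 0.0799), and CKAP5, a microtubule polymerase, at 25.6 ± 4.10 against 16.3 ± 2.23 FPKM (adjusted p = 0.0873; SD, n = 3 each). The CLIP1 paralogs CLIP2, CLIP3 and CLIP4 had log2 fold changes of 0.38, 0.12 and 0.32, and all had higher FPKM than CLIP1, at 1.76, 14.7 and 1.83 in labelled overexpression and 1.23, 13.7 and 1.36 in control vector libraries. These genes are long, with a median table length of 8377 bases against 3829 over all tested genes, and over all tested genes in 5 bins of length the median log2 fold change was -0.05 in the shortest bin and 0.16 in the longest. With that trend removed the list's median was 0.15, against 0.01 over all tested genes.

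The list around ezrin had 22 tested genes with a median of 0.19, and 0.06 with the length trend removed. Of the other ERM proteins RDX, or radixin, stood at 8.92 ± 2.33 FPKM in labelled overexpression and 8.56 ± 1.80 FPKM in control vector libraries (SD, n = 3 each), and MSN, or moesin, at 0.327 and 0.471 FPKM, too low to test. NF2, or merlin, a relative of the ERM proteins, had a log2 fold change of 0.41 (limma-trend, Benjamini-Hochberg adjusted p = 0.172) and ICAM1, an adhesion molecule that binds ERM proteins, one of 0.45 (adjusted p = 0.222). PDZK1, a PDZ scaffold, had 1.82 (adjusted p = 0.140), with 2.75, 3.87 and 5.34 FPKM in labelled overexpression replicates 1, 2 and 3 against 2.46, 0.781 and 0 FPKM in control vector replicates 1, 2 and 3. All 3 were higher in each labelled overexpression library, PDZK1 by a narrow gap to control vector replicate 1. They were named for the smallest p in the list, so this separation is partly built in. Of the 22 genes 17 were above and 5 below 0. In 7, or 31.8%, all labelled overexpression libraries were above all controls, where 14.2% of all tested genes were. In 1 they were all below, where 9.9% of all tested genes were. This list too was chosen with earlier results known.

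**Figure D3:**
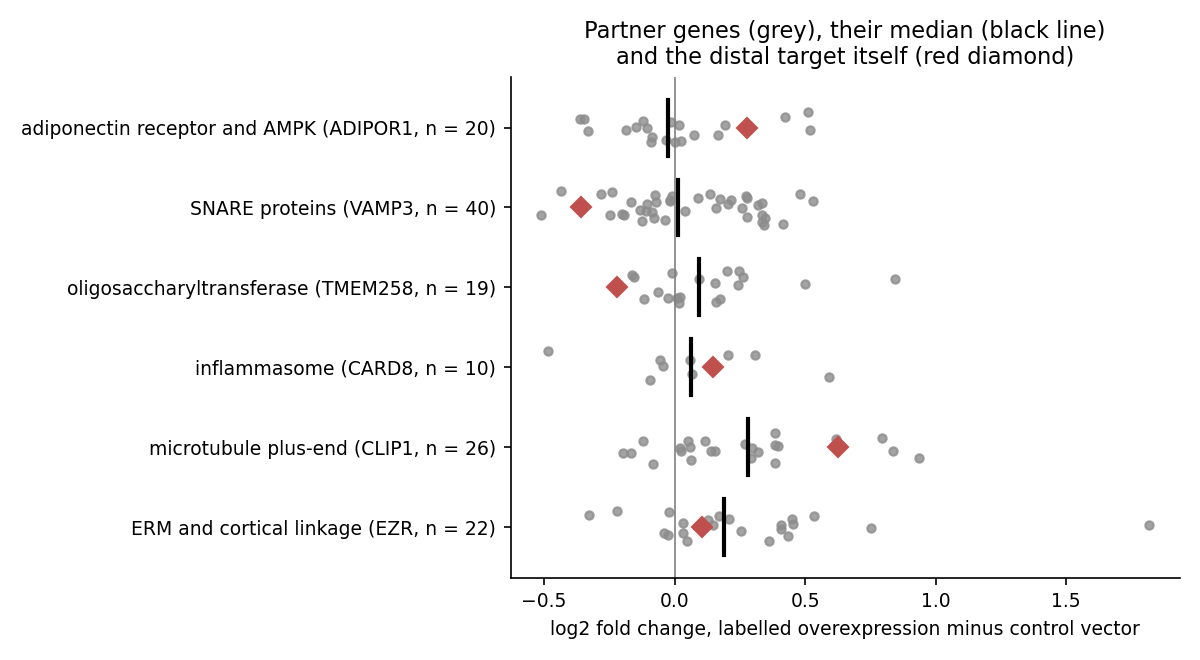
Log2 fold change (x axis) of each tested partner gene (grey points, spread vertically at random) by list, with the list's median (black line) and the distal target it belongs to (red diamond). VAMP3 and TMEM258 lie left of their lists' medians (0.01 and 0.09), ADIPOR1 and CLIP1 right of theirs (-0.02 and 0.28).

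Genes next to the members were examined within 100 kb. Of 62 neighbours 28 were tested, 1 passed, higher, which is 3.57% where 1.14% of all tested genes passed, and the median log2 fold change was 0.03. At an unadjusted limma-trend p under 0.05 there were 7, or 25.0% where 17.7% of all tested genes were. Of these 4 were higher and 3 lower, 14.3% and 10.7% of the tested neighbours, against 10.4% and 7.34% of all tested genes. The 3 lower ones include the microRNA gene MIR611, which lies in exons of TMEM258. Its fragments cannot be told apart from those of TMEM258, so the 10.7% and the 25.0% partly count a member itself. No share without MIR611 was computed, and an excess of lower neighbours cannot be read from these values. The gene that passed was FEN1, a flap endonuclease of DNA replication. It starts 109 bases from the 5′ end of TMEM258, on the other strand, and stood at 166, 166 and 183 FPKM in labelled overexpression replicates 1, 2 and 3, against 128, 124 and 116 FPKM in control vector replicates 1, 2 and 3. Its log2 fold change was 0.48 (SE 0.093, limma-trend Benjamini-Hochberg adjusted p = 0.0443), in the direction opposite to the -0.22 of TMEM258. FADS2, a fatty acid desaturase whose span overlaps FEN1 on the same strand, had -0.15, and fragments of that pair may not be separable. The call of FEN1 was lost in each of the 6 fits that left out a library. Without labelled overexpression replicate 1, 2 or 3 or control vector replicate 2, however, 0 of all tested genes passed. There the loss was not particular to FEN1. Without control vector replicate 1 only 3 of all tested genes passed, and without control vector replicate 3 there were 124.

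The microRNA gene MIR611 lies within TMEM258 on the same strand, and all 67 bases of its hairpin are in exons that the table gives to TMEM258. It was listed at 290, 343 and 278 FPKM in labelled overexpression replicates 1, 2 and 3, against 359, 396 and 333 FPKM in control vector replicates 1, 2 and 3, a log2 fold change of -0.26 (limma-trend, Benjamini-Hochberg adjusted p = 0.262). Its order of libraries was that of TMEM258 within each group, and the 471 to 1084 fragments counted there cannot be told apart from those of TMEM258. MYRF, which shares 400 exonic bases with TMEM258 on the other strand, averaged 0.400 FPKM in labelled overexpression and 0.193 FPKM in control vector libraries, too low to test. So was MYRF-AS1, at 0.151 FPKM in labelled overexpression and 0.0589 FPKM in control vector libraries.

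Around ADIPOR1 the nearest genes on each side had the same sign as ADIPOR1 itself. KLHL12, a ubiquitin ligase adaptor 12190 bases away, stood at 25.5 ± 2.81 FPKM in labelled overexpression and 18.7 ± 2.19 FPKM in control vector libraries (SD, n = 3 each; limma-trend, Benjamini-Hochberg adjusted p = 0.155). CYB5R1, a cytochrome b5 reductase 3301 bases away, stood at 8.25 ± 0.555 against 5.60 ± 1.32 FPKM (SD, n = 3 each; adjusted p = 0.185). The groups did not overlap for either. Among the 28 tested neighbours of all members 7 were higher and 3 lower in all labelled overexpression libraries, where 14.2% and 9.9% of all tested genes were. TMEM183A, 48802 bases away and named after its values were seen, was lower in all labelled overexpression libraries at 55.9 ± 3.15 against 74.5 ± 8.18 FPKM (SD, n = 3 each; adjusted p = 0.119), so the neighbourhood did not share one direction.

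At the other members 0 neighbours passed. CAMTA1 and PER3, which flank VAMP3, had log2 fold changes of -0.16 and -0.13 and overlapped between groups. The noncoding RP3-467L1.6, 393 bases long, lies inside VAMP3 on the same strand but shares 0 exonic bases with it. It was too low to test, at 0.0924, 0.435 and 0.571 FPKM in labelled overexpression replicates 1, 2 and 3 and at 0 in the controls. EZR-AS1, which shares 24 exonic bases with EZR on the other strand, had 0.10, close to the 0.11 of EZR. Next to EZR, SYTL3 and OSTCP1 were too low to test, at 0.330 and 0.0442 FPKM in labelled overexpression and 0.490 and 0.0359 FPKM in control vector libraries.

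VPS33A, a trafficking gene 4938 bases from CLIP1, had 0.21, and ZCCHC8 on the other side had -0.18. The pseudogene RPL21P1 inside CLIP1 had -0.47 (limma-trend, Benjamini-Hochberg adjusted p = 0.286), and CLIP1-AS1, with 470 exonic bases shared with CLIP1, was near 0 in all libraries. LIG1, a DNA ligase beside CARD8, had -0.06, and ZNF114-AS1 on the other side was too low to test. ZNF114, a zinc finger gene 14135 bases from CARD8 that was named after its values were seen, had the largest log2 fold change of the tested neighbours, 1.33 (limma-trend, Benjamini-Hochberg adjusted p = 0.237). It stood at 2.98, 2.37 and 3.73 FPKM in labelled overexpression replicates 1, 2 and 3, against 1.42, 2.24 and 0 FPKM in control vector replicates 1, 2 and 3, with a narrow gap between labelled overexpression replicate 2 and control vector replicate 2. CARD8-AS1 on the other strand of CARD8, with 3 shared exonic bases, stood at 0.286, 0.819 and 0.378 FPKM in labelled overexpression replicates 1, 2 and 3 and at 0.259, 0.201 and 1.34 FPKM in control vector replicates 1, 2 and 3. Within each group its highest and lowest libraries were those of CARD8. ZSWIM9 and CTC-453G23.8, with 313 and 389 exonic bases shared with CARD8, on the other strand, averaged 0.253 and 0.121 FPKM in labelled overexpression and 0.173 and 0.242 FPKM in control vector libraries, and CTC-453G23.7 was listed at 0 in all 6.

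**Figure D4:**
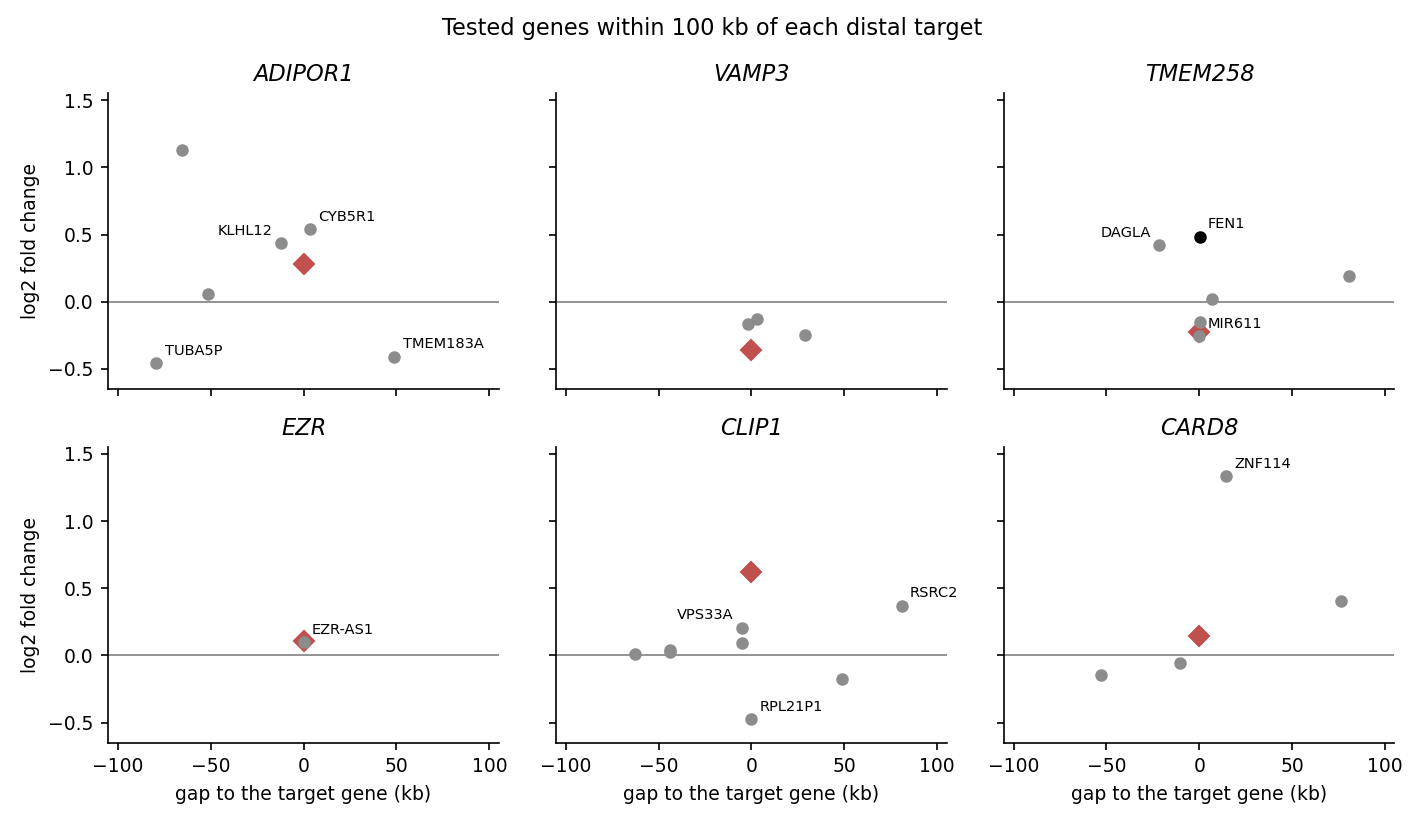
Log2 fold change (y axis) of tested genes within 100 kb of each distal target against the gap to that target in kb (x axis, negative towards lower coordinates, overlapping genes at 0); red diamonds are the targets, grey points genes that did not pass and the black point FEN1, which did (0.48). Labels name genes that passed, overlap a target or do not overlap between groups.

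The genes whose levels were most like each member over the 6 libraries were sought among 7399 tested genes with a mean of at least 5 FPKM that overlap no member. For ADIPOR1 they were ANXA2, annexin A2, with a Pearson r of 0.992, and the noncoding RP11-360L9.8 with 0.991. For VAMP3 they were PLGRKT, a plasminogen receptor, and DCTN6, a dynactin subunit, both at 0.988. TMEM258 was closest to SMARCB1, a subunit of the SWI/SNF remodeller, with 0.990, and RAB9A, an endosomal GTPase, with 0.984. EZR was closest to HNRNPK, an RNA-binding protein, with 0.995 and TAX1BP3 with 0.987. For CLIP1 they were STRA6 and the nuclease gene MUS81, at 0.994 and 0.993, and for CARD8 they were CCS, the copper chaperone of superoxide dismutase, and GABARAPL2, an autophagy protein, at 0.993 and 0.989. CLIP1 was far lowest in control vector replicate 3, at 41 fragments, and STRA6 and MUS81 were also lowest there, at 44.6 and 5.33 FPKM. The CLIP1 values of r may thus lean on that library, and r without it was not computed. With 6 libraries high values are frequent, as 77 genes reached an r of 0.95 with ADIPOR1, 46 with CLIP1, 40 with TMEM258, 23 with EZR, 21 with VAMP3 and 5 with CARD8. ANXA2, as the closest to ADIPOR1, stood at 55.9, 54.0 and 50.5 FPKM in labelled overexpression replicates 1, 2 and 3 against 38.7, 39.1 and 36.4 FPKM in control vector replicates 1, 2 and 3.

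Under 17 other settings 0 of the 6 distal targets passed in each, and the plot of settings shows their fold changes. Without a filter or without the variance trend, 0 of all tested genes passed. The same held without labelled overexpression replicate 1, 2 or 3 or control vector replicate 2. In those settings the 0 says nothing about the targets in particular. The log2 fold change of ADIPOR1 lay between 0.22 and 0.39, with its smallest adjusted p, 0.0641, when the libraries were rescaled to a common total (limma-trend, Benjamini-Hochberg). That of VAMP3 lay between -0.48 and -0.25 and that of TMEM258 between -0.33 and -0.10. EZR lay between 0.04 and 0.22, CLIP1 between 0.35 and 1.76, and CARD8 between -0.04 and 0.47. Of the list medians, those of the microtubule plus-end genes (0.14 to 0.39), the ezrin list (0.05 to 0.29) and the oligosaccharyltransferase list (0.03 to 0.20) stayed above 0. The medians changed sign for the adiponectin receptor list (-0.15 to 0.08), the SNARE list (-0.08 to 0.12) and the inflammasome list (-0.03 to 0.16). The median over all tested genes moved too, from -0.0028 with median-of-ratios factors to 0.1543 with a common total. A list's sign is therefore not a trait of that list alone. The oligosaccharyltransferase median was 0.0935 against 0.0541 over all tested genes as reported. Without labelled overexpression replicate 3 it was 0.0485 against 0.0521.

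**Figure D5:**
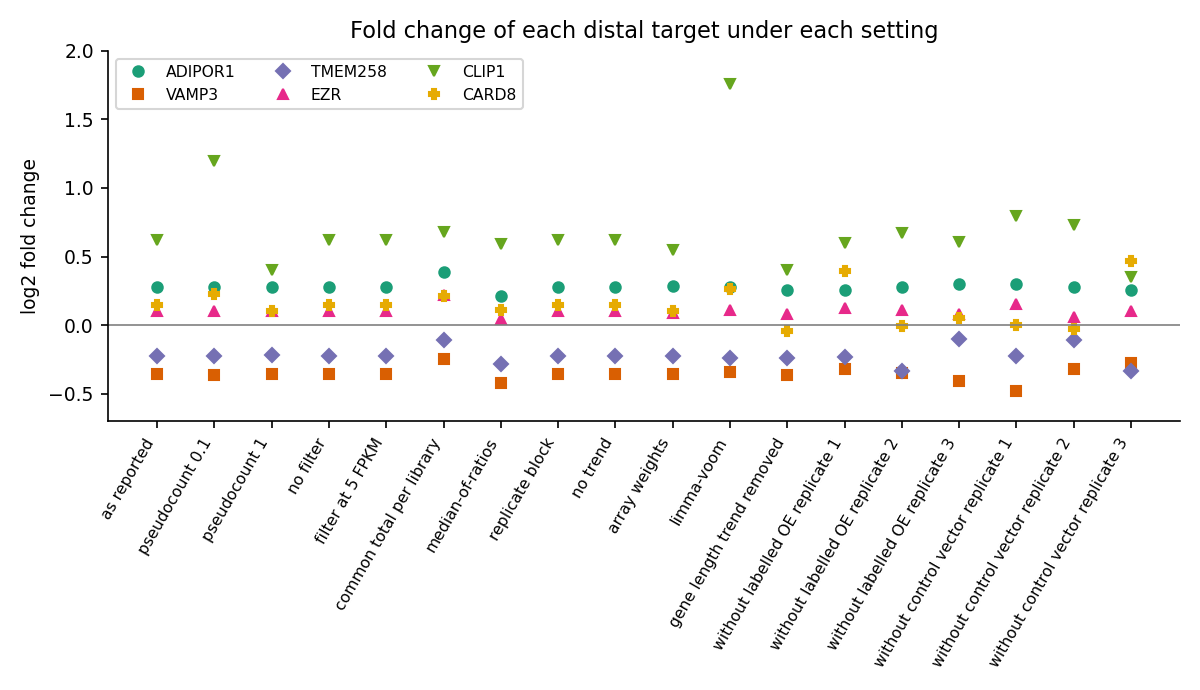
Log2 fold change (y axis, labelled overexpression minus control vector) of each distal target as reported and under 17 other settings (x axis); markers and colours stand for genes. ADIPOR1, EZR and CLIP1 stay above 0 and VAMP3 and TMEM258 below 0 in all of them, while CARD8 crosses 0.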

How the data were processed

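Per the labels' protocols, column-purified total RNA was made into cDNA libraries with a SMART-seq kit and read as pairs of 150 nt. The submitters' processing notes list, without roles, the aligner STAR 2.7.9, the counter featureCounts 2.0.1 and the builds GRCh38.p13 and hg38. Options and strand use are not given in the sources used here. The authors deposited FPKM per gene with gene length and exon positions, per the file headers. Values behaved as multiples of 0.01 fragments, with 44.2% to 49.0% whole within 0.001 for values up to 1000 fragments, which gave each library's depth. Precision is limited by the spread of 3 libraries a group, and counting errors cover counting only.

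Genes with at least 1 FPKM in at least 3 of 6 libraries (13984) were fitted in R 4.3.3 by limma 3.58.1, after log2(FPKM + 0.5), with its trend option and no block, and p-values were Benjamini-Hochberg adjusted over all of them at 0.05. This scale understates changes of low genes. CLIP1 and CDKN2B-AS1, below the filter, were each fitted beside them. Lists hold partner genes of each member; named are the members, paralogs, the 3 genes of smallest p per list and any that passed, genes overlapping or nearest to a member, and for each member the 2 genes of highest r. A SNARE list gene that this rule names is not reported here. Members and lists were chosen with earlier results of these data known. Overlapping genes were treated as not separable.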

Additional observations from a re-analysis of the deposited data

How the results depend on the processing

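With each of 17 alternatives 0 of the 6 distal targets passed, and ADIPOR1, VAMP3, TMEM258, EZR and CLIP1 kept their sign. In the alternatives where 0 of all tested genes passed, given below, the count says nothing about the targets in particular. CARD8 reversed to -0.0427 with the trend on gene length removed, to -0.0048 without labelled overexpression replicate 2 and to -0.028 without control vector replicate 2, within a range of -0.028 to 0.4706 when 1 library was left out. CDKN2B-AS1 reversed to -0.0813 with the length trend removed. The causes were not tested.

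The number of tested genes past the threshold, 159 (74 higher, 85 lower), was 339 with a filter at 5 FPKM, 265 with array weights (149 higher, 116 lower) and 0 both without a filter and without the variance trend, where limma's unadjusted p was under 0.05 for 3538 and 2304 genes. Leaving out 1 library gave 0 to 124 genes: 0 without labelled overexpression replicate 1, 2 or 3 (1734, 1665 and 2109 at an unadjusted p under 0.05), 3 without control vector replicate 1, 0 without replicate 2 (2304) and 124 without replicate 3. Limma-voom gave 125. The split was 181 higher and 52 lower with libraries rescaled to a common total, where the median over all genes was 0.15 in place of 0.05, 55 and 132 with median-of-ratios factors, 79 and 46 with limma-voom and 49 and 81 with the length trend removed. Relative to the moved median ADIPOR1 and VAMP3 kept their signs.

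The neighbouring gene past the threshold, FEN1, was lost (0 genes) without a filter, with median-of-ratios factors, without the trend and with any library left out (0 to 0). In the fits where 0 of all tested genes passed, this loss was not particular to FEN1. Of the partner lists, the microtubule plus-end genes had 2 past the threshold with a filter at 5 FPKM and with limma-voom and 1 with a common total, and the 5 other lists 0 throughout.

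Whether the replicate numbers pair the libraries is not stated by the labels and was not settled here. Same-numbered deviations from the group means correlated at -0.0235, 0.105 and 0.119 for numbers 1, 2 and 3. Labelled overexpression replicates 2 and 3 correlated best with the control of the same number, and replicate 1 correlated best with control vector replicate 2 (0.102). With the replicate block 229 genes passed (98 higher, 131 lower), 0 of the 6 targets among them. TMEM258 had -0.22 with an SE of 0.084 in place of 0.15 (limma-trend, Benjamini-Hochberg adjusted p = 0.204).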
